A study of Rattus norvegicus with 60 samples.

Results

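The cytotoxic and natural killer (NK) cell genes described here were the 10 genes Prf1, Gzma, Gzmb, Gzmk, Nkg7, Klrd1, Klrk1, Ncr1, Ccl5 and Eomes, out of 18166 genes named by a probe set with a single symbol. All 10 had such a probe set among the 36685 on the array. Gzmb had 3, and for it the probe set with the highest mean was used. The samples came from 20 rats with haemophilia A, the lack of coagulation factor VIII, killed 24 h after a procedure on 1 knee. In 11 rats a bleed was induced in the knee, and from these rats both knees were sampled (intra-articular tissue), as was the popliteal node of each hind limb, that is the bled and the contralateral side (11 arrays for each side and tissue). The other 9 rats had a sham procedure and gave 9 node arrays and 7 knee arrays, because RNA of 2 sham knees was too scarce. Bled samples were always from the left and contralateral and sham samples from the right, so bleeding and body side cannot be told apart. All groups carried haemophilia A, and age and sex are not given in the labels used here.

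Cytotoxic lymphocytes, which are NK cells and CD8 T cells, kill by releasing granules at the contact with a target cell. Perforin, encoded by Prf1, opens the target membrane, and the granzymes (Gzma, Gzmb and Gzmk) are serine proteases that enter through it, while Nkg7 encodes a membrane protein of these granules. Klrd1 (CD94, the partner of NKG2 receptors), Klrk1 (the activating receptor NKG2D) and Ncr1 (the activating receptor NKp46) are surface receptors. Ccl5 is a chemokine that draws T cells and monocytes and is also made by activated T and NK cells, and Eomes is a T-box transcription factor of NK cells and memory CD8 T cells.

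The promoters of Prf1, Gzma, Gzmk and Klrk1 are shown because the first 3 were called together in the contralateral knee and Klrk1 had the largest difference between the knees. Each window runs from 250 bases before to 50 bases after the annotated start, 5′ to 3′ on the strand of the gene, from RefSeq on the build GRCr8 (Prf1 chr20:29788790-29789089, plus strand; Gzma chr2:46485647-46485946, minus strand; Gzmk chr2:46581966-46582265, minus strand; Klrk1 chr4:164778333-164778632, minus strand). Capitals mark matches, on either strand, to the RUNX core TGTGGT (read as ACCACA on the other strand) and to the T-box motif GGTGTGA.
Prf1: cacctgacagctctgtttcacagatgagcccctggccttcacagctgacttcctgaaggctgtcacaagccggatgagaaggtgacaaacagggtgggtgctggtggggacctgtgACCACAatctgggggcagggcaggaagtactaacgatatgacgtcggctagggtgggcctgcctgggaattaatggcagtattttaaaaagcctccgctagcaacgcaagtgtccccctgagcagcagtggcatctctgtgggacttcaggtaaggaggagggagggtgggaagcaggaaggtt
Gzma: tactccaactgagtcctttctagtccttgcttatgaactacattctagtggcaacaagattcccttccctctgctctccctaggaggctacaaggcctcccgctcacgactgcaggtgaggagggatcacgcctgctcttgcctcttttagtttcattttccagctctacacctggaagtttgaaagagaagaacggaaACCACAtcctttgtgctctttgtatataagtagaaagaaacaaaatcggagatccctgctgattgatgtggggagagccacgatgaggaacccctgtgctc
Gzmk: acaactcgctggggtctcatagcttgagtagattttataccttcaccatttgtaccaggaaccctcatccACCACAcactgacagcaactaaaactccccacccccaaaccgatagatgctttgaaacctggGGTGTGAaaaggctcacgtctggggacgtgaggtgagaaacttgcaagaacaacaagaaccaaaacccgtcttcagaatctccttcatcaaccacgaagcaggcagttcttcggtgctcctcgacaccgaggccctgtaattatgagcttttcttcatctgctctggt
Klrk1: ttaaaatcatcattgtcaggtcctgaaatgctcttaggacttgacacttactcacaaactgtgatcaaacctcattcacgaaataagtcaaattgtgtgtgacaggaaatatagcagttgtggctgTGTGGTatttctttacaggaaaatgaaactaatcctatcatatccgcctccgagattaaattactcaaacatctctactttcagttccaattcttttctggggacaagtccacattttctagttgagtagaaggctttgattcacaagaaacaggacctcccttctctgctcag
A promoter was listed for 7 of the 10 members (Prf1, Gzma, Gzmb, Gzmk, Nkg7, Klrk1 and Eomes). The RUNX core was in 7 of these 7 windows and in 17.3% of all 33469 promoters of that length. The T-box motif was in 1 of the 7, that of Gzmk, and in 3.83% of all promoters. The STAT motif TTCNNNGAA was in 2 of the 7, those of Gzmb and Nkg7, and in 8.87% of all. The searched motifs do not overlap in these windows, and a match is a description of the letters only.

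The values are log2 expression values, so a difference of 1 is a 2-fold change, and a gene is called where limma's adjusted p over all probe sets was under 0.05. In the sham rats, 9 of the 10 members were lower in the knee than in the node, where 28.3% of probe sets were called lower, 24.3% higher and 52.5% in either direction. Prf1 had the largest difference (mean 5.61 ± 0.39 SD in 7 sham knees and 10.04 ± 0.45 in 9 sham nodes, log2 difference −4.44 ± 0.16 SE, 21.6-fold lower in the knee, adjusted p = 5.36e-33). Klrk1 differed by −3.81, Klrd1 by −2.73 and Nkg7 by −2.43. Gzmb was not called (0.01, 95% interval −0.33 to 0.35). The sources used here do not say whether both tissues were normalized together.

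Gzma and Gzmb lay below the median of their array, which ranged from 5.64 to 5.94, on every knee array and on all but 1 node array (1 contralateral node for Gzma). Gzmk and Klrd1 did so on every knee array, and Ncr1 on all but 2 bled knees. Signal this dim can compress differences, and the levels of different genes were not compared. In bulk tissue, fewer cells of a type and less RNA per cell cannot be told apart.

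**Figure D1:**
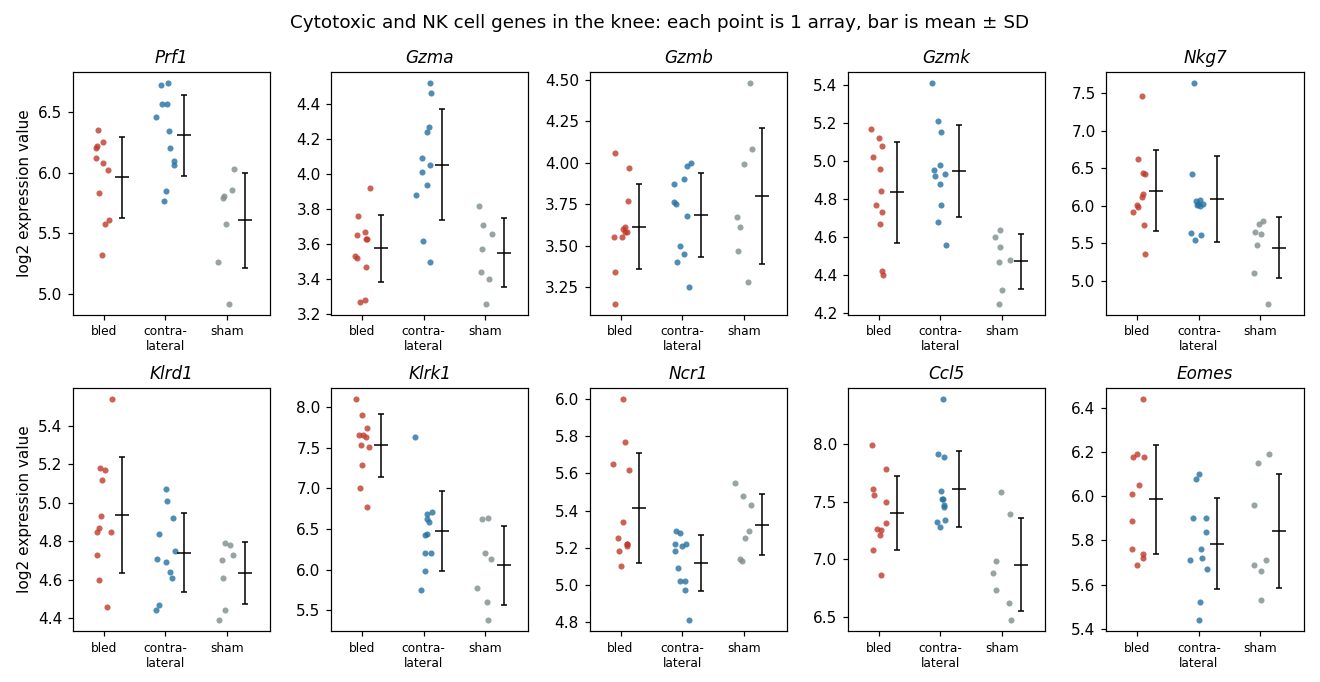
Log2 expression values (vertical axis, a separate scale for each gene) of the 10 genes on the 29 knee arrays, with bled knees left, contralateral knees in the middle and sham knees right. Points are arrays and bars are mean ± SD. Klrk1 in the bled knees (6.77 to 8.10) lies above all sham knees (5.38 to 6.64).

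In the bled knee, Klrk1 and Ncr1 rose and Gzma fell relative to the contralateral knee of the same rats, and the other 7 members were not called. These 3 called members stand beside 34.7% of all probe sets called in this comparison (19.5% higher and 15.2% lower), and beside 49.2% of the 18166 named genes (25.9% higher and 23.3% lower), so the share of members called is not above the background. The median difference of the members was 0.02, against 0 for all probe sets. Of the 3 called members, Klrk1 was also called between bled and sham knees (1.48), while Gzma (0.02) and Ncr1 (0.09) were not.

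Klrk1 was the member with the largest difference. It had a lowest, median and highest value of 6.77, 7.64 and 8.10 in the 11 bled knees, 5.75, 6.44 and 7.63 in the 11 contralateral knees, and 5.38, 6.13 and 6.64 in the 7 sham knees. Every bled knee exceeded every sham knee, and all contralateral knees but that of rat K10 lay below the lowest bled knee. The difference between bled and contralateral knees was 1.05 ± 0.18 SE (2.07-fold, adjusted p = 1.87e-05), with the bled knee higher in 11 of 11 rats by 0.03 to 1.90. Rat K10 gave the smallest of these differences, since its contralateral knee (7.63) stood apart from the next highest (6.71). Bled knees exceeded sham knees by 1.48 ± 0.21 (2.79-fold, adjusted p = 6.96e-07), and the groups did not overlap, as was so for 14.6% of probe sets.

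The NK receptor gene Ncr1 had 5.10, 5.25 and 6.0 (lowest, median, highest) in bled knees, 4.81, 5.18 and 5.29 in contralateral knees and 5.13, 5.29 and 5.55 in sham knees. The groups overlapped, and 5 bled knees exceeded all contralateral ones. Bled knees were higher than contralateral knees by 0.30 ± 0.09 (adjusted p = 0.0126), in 9 of 11 rats with 1 equal. Against sham the difference was 0.09 (95% interval −0.13 to 0.31, adjusted p = 0.546).

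Klrd1, the CD94 gene, had 4.46, 4.87 and 5.54 in bled knees, 4.44, 4.71 and 5.07 in contralateral knees and 4.39, 4.70 and 4.79 in sham knees. The bled knees overlapped both other groups. The bled minus contralateral difference was 0.20 (95% interval −0.01 to 0.40, adjusted p = 0.148). Klrd1 was called against sham (0.30 ± 0.11, adjusted p = 0.0359), but adjusted p was between 0.0545 and 0.0876 when any 1 of 7 arrays was left out (bled K4, K5, K7 or K11, or sham C1, C2 or C9), 0.0604 with only the compared groups and 0.0589 with the muscle covariate.

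Among the effector genes, Gzma had 3.27, 3.63 and 3.92 in bled knees, 3.50, 4.05 and 4.52 in contralateral knees and 3.26, 3.57 and 3.82 in sham knees. The bled and sham knees covered nearly the same range, and 9 of 11 contralateral knees lay above every sham knee. Gzma fell by 0.48 ± 0.10 on the log2 scale in bled relative to contralateral knees (1.39-fold lower, adjusted p = 0.000376), and was lower in the bled knee in 11 of 11 rats. The difference between bled and sham knees was 0.02 (95% interval −0.22 to 0.27).

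Prf1, the perforin gene, had 5.32, 6.08 and 6.35 in bled knees, 5.77, 6.34 and 6.74 in contralateral knees and 4.92, 5.79 and 6.03 in sham knees. The bled knees lay between the other two groups and overlapped both. The difference between bled and contralateral knees was −0.35 ± 0.14 (adjusted p = 0.0615), lower in 7 of 11 rats. With the rat as a fixed block its adjusted p was 0.0313, and with the contralateral knee of K10 left out the difference was −0.40 (adjusted p = 0.0271). It was also called when contralateral K1 (0.0337), bled K4 (0.0486), bled K6 (0.0399) or sham C5 (0.0402) was left out. Over 11 processing settings it was called in 7, with differences of −0.36 to −0.31. Against sham it was 0.35 ± 0.16 (adjusted p = 0.0848), and 0.44 after quantile normalization (0.0441), and it was called when bled K9 (0.0343) or sham C3 (0.0458) was left out.

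The granzyme gene Gzmk had 4.40, 4.84 and 5.17 in bled knees, 4.56, 4.93 and 5.41 in contralateral knees and 4.25, 4.48 and 4.64 in sham knees. Of the 11 bled knees, 9 exceeded every sham knee. Gzmk was called higher against sham (0.36 ± 0.11, 1.28-fold, adjusted p = 0.01) and not against the contralateral knee (−0.11, 95% interval −0.32 to 0.09). Gzmb had medians of 3.58 in bled, 3.75 in contralateral and 3.67 in sham knees and was called in none of the 3 knee comparisons. Its bled minus contralateral difference was −0.07 (95% interval −0.32 to 0.18), and those of its other two probe sets were −0.02 and 0.06.

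Nkg7 had 5.36, 6.12 and 7.47 in bled knees, 5.54, 6.02 and 7.64 in contralateral knees and 4.69, 5.62 and 5.79 in sham knees. Bled and contralateral knees covered much the same range, each with 1 array far above the rest (bled K2, contralateral K10). The bled minus contralateral difference was 0.11 ± 0.21 (95% interval −0.33 to 0.55), and 0.26 without the contralateral knee of K10. Against sham, Nkg7 was called higher in bled knees (0.76 ± 0.24, 1.70-fold, adjusted p = 0.0123).

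The chemokine gene Ccl5 had 6.86, 7.31 and 7.99 in bled knees, 7.28, 7.52 and 8.39 in contralateral knees and 6.47, 6.88 and 7.58 in sham knees. The bled knee was lower than the contralateral one in 9 of 11 rats, by a group difference of −0.21 (adjusted p = 0.311), or adjusted p = 0.0297 with the rat as a fixed block. It was called higher in bled than in sham knees (0.45 ± 0.16, 1.37-fold, adjusted p = 0.0268), and adjusted p was 0.0507, 0.0605, 0.0659 and 0.079 without bled K5, sham C5, sham C7 and sham C9. Eomes had medians of 6.01 in bled, 5.76 in contralateral and 5.71 in sham knees, and its differences of 0.20 (95% interval 0 to 0.40) and 0.14 were not called.

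In all, 5 members were called higher in bled than in sham knees (Gzmk, Nkg7, Klrd1, Klrk1 and Ccl5) and 0 lower, beside 19.9% of probe sets called higher, 18.8% lower and 38.7% in either direction, and 50.5% of named genes (27.3% higher and 23.2% lower). The members' median difference was 0.33, against −0.05 over all probe sets. The comparisons of bled knees with contralateral and with sham knees share the bled arrays.

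**Figure D2:**
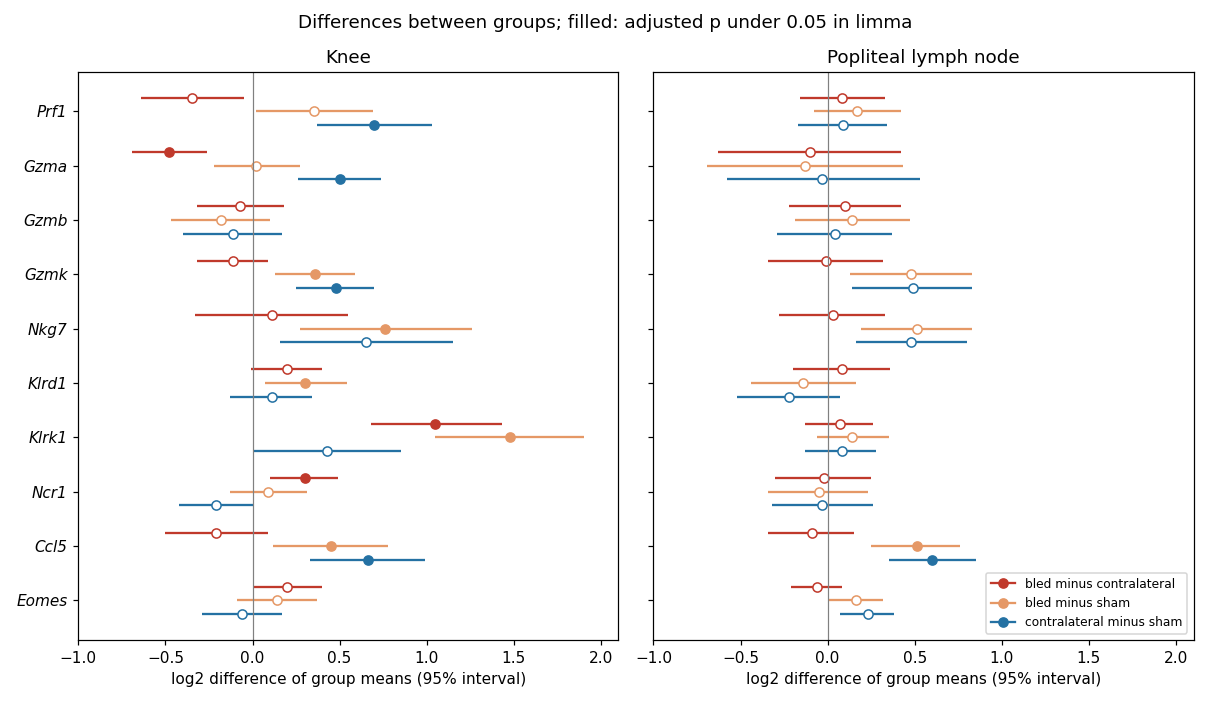
Log2 differences between groups (horizontal axis, with 95% intervals) for the 10 genes in the knee (left panel) and the popliteal lymph node (right panel). Filled points had an adjusted p under 0.05 in limma. Klrk1 stands at 1.05 and 1.48 in the bled knee, while no difference between the 2 sides is called in the node.

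Wider lists of the same pathway were counted in the knee, beside the 49.2% of named genes called there (25.9% higher and 23.3% lower). Of 96 measured genes in 8 lists by role, 41 were higher and 10 lower in bled than in contralateral knees, with a median difference of 0.23 (0 over all probe sets and over named genes). The share called in either direction was near that background. Among 29 NK receptors and adaptors, 8 were higher, a share near the background, and 0 lower, and the 8 included Hcst (1.60 ± 0.20), which encodes DAP10, the signalling partner of NKG2D, and Tyrobp (1.80 ± 0.13), the adaptor DAP12 of several activating receptors. Sh2d1b (2.67) and Cd244l1 (1.49) were also higher. Tyrobp is abundant in myeloid cells as well as in NK cells.

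Of 7 granule release genes, 5 were higher and 1 lower, led by Stx11 (1.87 ± 0.12) and Stxbp2 (1.60 ± 0.09), whose products act in granule fusion with the membrane. Of 10 other granule and death ligand genes, 4 were higher: the protease gene Ctsc (1.66), which activates granzymes and is also found in myeloid cells, Cst7 (1.65), Srgn (1.02) and Ctsw (0.49), which was named after its value was seen. The death ligand gene Tnfsf10 was the 1 lower gene and had the largest change of the 96 (−4.50 ± 0.22, adjusted p = 4.94e-16). Of 4 granzyme inhibitor genes, Serpinb9 was lower (−0.52) and Serpina3n and Serpinb6b were higher (0.50 and 0.49).

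Of 9 transcription factor genes, 5 were higher and 1 lower, with Runx3 at 2.77 ± 0.12, Nfil3 at 1.93 and Prdm1 at 1.08, and Tox at −1.07. Tbx21, the T-box factor of cytotoxic cells, was not called (0.03 ± 0.08, adjusted p = 0.809), and neither was Ifng, the interferon gamma gene (0.08 ± 0.07, adjusted p = 0.442); both were chosen after their values were seen. Of 13 cytokines and receptors, 5 were higher and 2 lower, with Il18rap (2.06), Il21r (2.04), Il18 (1.82) and Il18r1 (1.4) leading. Of 15 genes of the Ccl5 receptor and chemokine list, 8 were higher and 3 lower, with Ccl3 (3.09), the CCL5 receptor gene Ccr1 (2.75) and Cx3cr1 (2.44) higher and Cx3cl1 (−2.29) lower. Of 9 NK receptor ligand genes, 4 were higher and 1 lower, with Clec2d2 at 2.55, Pvr at 0.94, Raet1l, of a family of NKG2D ligands, at 0.40 and Clec2g at −0.46.

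Markers of other cell types moved with the bled knee, and their part in these results was not tested. The marker counts between bled and contralateral knees stand beside 25.9% of named genes called higher and 23.3% lower. Of 17 T cell markers, 16 were higher in bled than in contralateral knees, among them Cd2 (3.54), Cd8b (2.53), Cd8a (2.06) and Cd3g (1.93), and 1 was lower. The mean log2 value of the T cell markers was 6.81 to 7.48 in bled, 5.78 to 6.54 in contralateral and 5.77 to 6.02 in sham knees. The mean of 8 neutrophil markers was 7.09 to 9.33 in bled, 5.75 to 8.11 in contralateral and 5.71 to 5.96 in sham knees, with K2 and K10 the highest of the first 2 groups. The mean of 9 macrophage and monocyte markers was 10.51 to 11.14 in bled, 10.55 to 10.89 in contralateral and 10.02 to 10.79 in sham knees. Of 6 B cell markers, 3 were higher and 0 lower. The mean of the B cell markers was 6.64 to 7.12 in bled, 6.11 to 6.85 in contralateral and 5.94 to 6.39 in sham knees. Of 6 plasmacytoid dendritic cell markers, 5 were higher (Irf8 at 1.76, Spib at 1.64, Blnk at 1.4 and Runx2 at 1.34 among them) and 1 lower. Their mean was 8.20 to 8.87 in bled, 7.31 to 7.94 in contralateral and 6.98 to 7.51 in sham knees. Bled knees did not overlap the others in this mean, nor in the T cell and adipocyte means. Contralateral K10 was the highest of its group also in the T cell mean (6.54) and in the plasmacytoid dendritic cell mean (7.94). In the B cell mean and the macrophage and monocyte mean, K5 and K9 were the highest contralateral knees. The adipocyte mean was 8.26 to 9.90 in bled, 11.07 to 11.81 in contralateral and 10.93 to 11.63 in sham knees. The mean of 7 skeletal muscle markers varied widely within every knee group. It was 6.13 to 12.16 in bled (SD 2.07), 6.35 to 12.61 in contralateral (SD 2.06) and 6.36 to 12.64 in sham knees (SD 2.71). Of the 9 NK cell markers, 7 are members, so that list adds little.

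**Figure D3:**
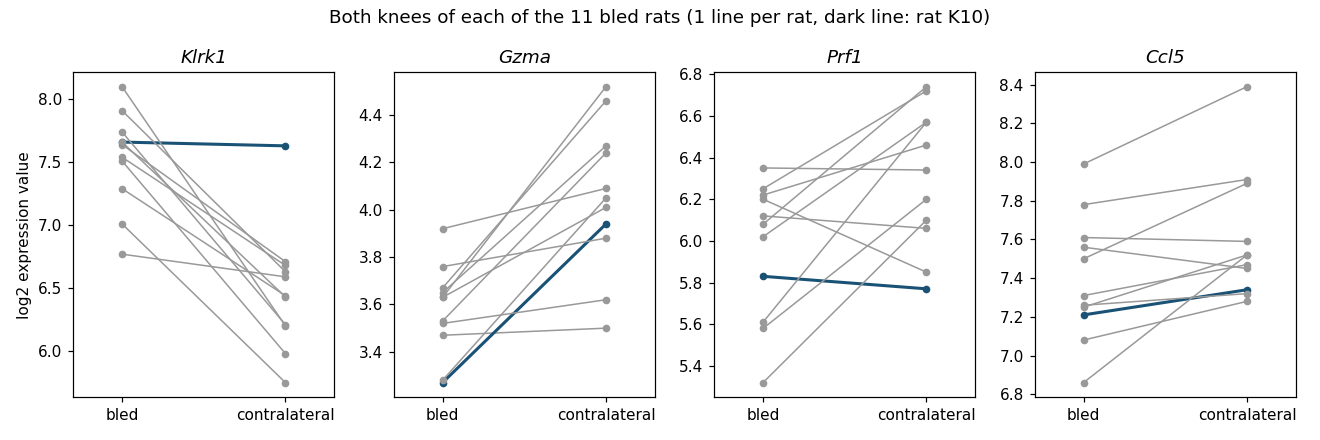
Log2 expression values (vertical axis) of Klrk1, Gzma, Prf1 and Ccl5 in the bled and contralateral knee of each of the 11 bled rats, 1 line per rat, with K10 dark. Klrk1 is higher and Gzma lower in the bled knee of 11 of 11 rats, while Ccl5 is lower in 9.

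The contralateral knee had not been bled, and it was set against the sham knee. Prf1, Gzma, Gzmk and Ccl5 rose in it. These 4 called members stand beside 0.984% of probe sets called higher (1.82% in either direction), and 0 members were lower beside 0.831%. Of the named genes, 1.68% were called higher and 0.754% lower. The median of the members was 0.45, against −0.02 over all probe sets. For 0.202% of probe sets the groups did not overlap, and none of these was a member.

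Prf1 was 0.70 ± 0.16 higher in contralateral than in sham knees (1.62-fold, adjusted p = 0.0178), and 9 of 11 contralateral knees exceeded every sham knee. Without the sham array of C5, which correlated least with its group (0.965), the Prf1 difference was 0.59 (adjusted p = 0.0643), and leaving out sham C9 gave 0.64 (0.0503). With array weights it was 0.61 (0.0669). Ccl5 was 0.66 ± 0.16 higher (1.58-fold, adjusted p = 0.0286), and adjusted p was 0.0735, 0.0573, 0.0593 and 0.0761 when sham C5, C6, C7 and C9 were left out in turn. Gzma was 0.50 ± 0.12 higher (1.42-fold, adjusted p = 0.0208) and Gzmk 0.48 ± 0.11 (1.39-fold, adjusted p = 0.0201), and leaving out sham C6 gave 0.0501 for Gzma and 0.0564 for Gzmk. With only the compared groups, adjusted p was 0.0747 for Gzma and 0.0619 for Ccl5. The direction of all 4 was kept whichever knee array was left out.

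The other 6 members were not called between contralateral and sham knees. Nkg7 differed by 0.65 ± 0.24 (adjusted p = 0.17) and Klrk1 by 0.43 (95% interval 0 to 0.85, adjusted p = 0.315). Ncr1 differed by −0.21 (95% interval −0.42 to 0.01), and Eomes, Klrd1 and Gzmb by −0.06, 0.11 and −0.11. The counts of wider genes and markers that follow stand beside 1.68% of named genes called higher and 0.754% lower. Of the 96 wider genes, 4 were higher (Sh2d1b 0.87, Cd226 0.82, Serpina3n 0.81 and Rab27a 0.32) and 1 lower (Nfil3, −0.65). Of 17 T cell markers only Cd8a was called (0.65 ± 0.13, adjusted p = 0.00555). Of 6 plasmacytoid dendritic cell markers, Runx2 (0.55) and Il3ra (0.43) were higher in contralateral knees. Of 10 synovial lining and fibroblast markers, 4 were lower in contralateral knees, with Col1a1 at −0.66 and Thy1 at −0.63, and the part of these markers in the result was not tested.

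In the popliteal lymph node, no member was called between the bled and the contralateral side. limma called 0 of 10 members and 0% of all probe sets, with 0 members and 2.34% of probe sets at an unadjusted p under 0.05. The differences of the members lay between −0.10 (Gzma, 95% interval −0.63 to 0.42) and 0.10 (Gzmb, −0.22 to 0.42). Klrk1 had 9.81, 9.98 and 10.31 in bled-side nodes, 9.73, 9.92 and 10.13 in contralateral nodes and 9.22, 9.89 and 10.32 in sham nodes, and these ranges overlapped. Its difference between the sides was 0.07 (95% interval −0.13 to 0.26).

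Ccl5 was the 1 member called in the nodes of both sides against sham. It had 8.85, 9.27 and 10.08 in bled-side nodes, 9.05, 9.53 and 9.72 in contralateral nodes and 8.35, 8.89 and 9.23 in sham nodes. In each of the first 2 groups 8 of 11 nodes exceeded every sham node. The bled-side nodes were higher by 0.51 ± 0.12 (1.42-fold, adjusted p = 0.0176), beside 1.91% of probe sets called higher, 2.34% lower and 4.26% either way, and 0 members were lower. The contralateral nodes were higher by 0.60 ± 0.12 (1.52-fold, adjusted p = 0.00609), beside 2.22% called higher, 2.81% lower and 5.03% either way, again with 0 members lower. Both comparisons share the sham nodes. Without the sham nodes of C2 and C9, which correlated least with their group, the bled-side adjusted p was 0.0502, and with the adipocyte mean as a covariate the contralateral one was 0.0664. That adipocyte mean was 7.27 to 9.26 in bled-side, 8.42 to 9.18 in contralateral and 7.21 to 8.99 in sham nodes.

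Nkg7 and Gzmk differed from sham by similar amounts in the nodes and were not called. Nkg7 had 7.86, 8.26 and 9.05 in bled-side, 8.02, 8.37 and 8.80 in contralateral and 7.16, 7.89 and 8.45 in sham nodes, with overlapping ranges. Its differences were 0.51 (adjusted p = 0.0584) on the bled side and 0.48 (0.0707) on the contralateral side. Gzmk differed by 0.48 (adjusted p = 0.101) and 0.49 (0.0892), and Eomes by 0.16 (0.225) and 0.23 (0.0781). Leaving out 1 array moved some of these past the threshold. Nkg7 was called on the bled side without bled K2 (adjusted p = 0.041), bled K3 (0.046), sham C1 (0.0315) or sham C5 (0.0448), and on the contralateral side without sham C1 (0.0374). Gzmk was called without bled K2 (0.0434) on the bled side and without sham C1 (0.046) on the contralateral side, and Eomes without contralateral K2 (0.0403) on the contralateral side. Prf1, Gzma, Gzmb, Klrd1, Klrk1 and Ncr1 differed by −0.22 to 0.17 in these comparisons and were not called.

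Of the 96 wider genes in the node, 12 were higher and 1 lower on the bled side, and 16 higher and 2 lower on the contralateral side, against sham. Of all named genes, 3.02% were higher and 2.46% lower on the bled side, and 3.71% higher and 3.03% lower on the contralateral side. The Fc receptor gene Fcgr3a was higher by 0.92 and 1.05 on the bled and contralateral sides, Sh2d1b by 0.85 and 0.86, and the CXCR3 ligand genes Cxcl9 by 0.72 and 0.83 and Cxcl10 by 0.73 and 0.75. Lyst, a gene of granule biogenesis, differed by −0.42 and −0.37. Serpina3n was higher by 1.76 and 1.83.

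**Figure D4:**
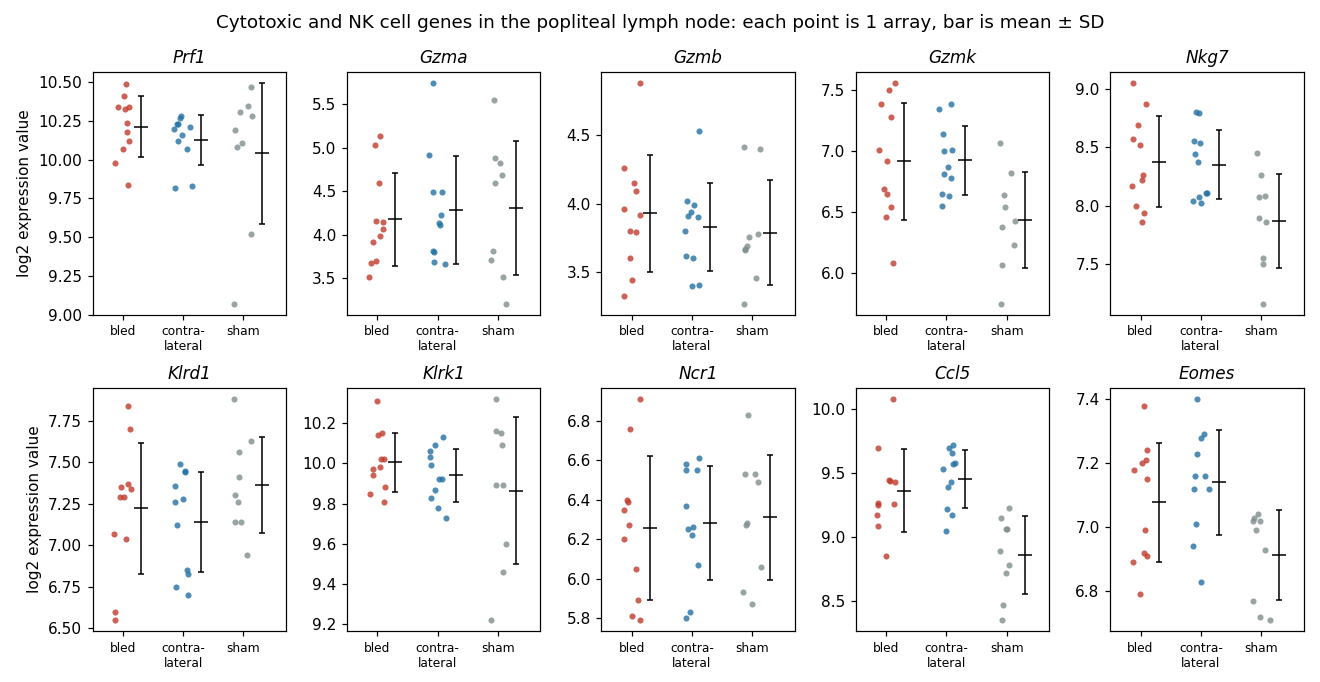
Log2 expression values (vertical axis, a separate scale for each gene) of the 10 genes on the 31 node arrays, with bled-side nodes left, contralateral nodes in the middle and sham nodes right. Points are arrays and bars are mean ± SD. The groups overlap for all 10 genes, and Ccl5 in both groups of the bled rats is shifted upward from sham (means 9.36 and 9.46 against 8.86).

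Whether knee and node responded differently was tested in 1 model of all 60 arrays. Klrk1 was the 1 member called for the difference between sides (knee minus node 0.99 ± 0.21, adjusted p = 0.000105), beside 27.8% of probe sets (15.5% higher and 12.4% lower). It was also the 1 member called for the bled minus sham difference (1.34 ± 0.23, adjusted p = 2.51e-06), beside 31.3% (18% higher and 13.2% lower). For the contralateral minus sham difference 0 members were called in limma, with 2 at an unadjusted p under 0.05, beside 2.03% of probe sets (1.14% higher and 0.891% lower). The knee minus node difference of Ccl5 for contralateral minus sham was 0.06 (95% interval −0.35 to 0.47), and that of Prf1 was 0.61 (0.20 to 1.03, adjusted p = 0.103).

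The members also varied between arrays of a group. After the group means were removed, 45 pairs were compared in each tissue with permutations within groups and Benjamini-Hochberg adjustment, and a pair was called on Pearson's r. Arrays of both sides of a rat were counted separately, so these p-values may be too small. In the node 6 pairs were called, all positive. On Spearman's rho 8 were called, 6 of them positive and 2 negative, namely Nkg7 with Klrd1 (rho = −0.49, permutation p = 0.00684, adjusted p = 0.0429; r = −0.43) and Prf1 with Ncr1 (rho = −0.47, permutation p = 0.00762, adjusted p = 0.0429; r = −0.44). Gzmk and Nkg7 correlated with Pearson's r = 0.78 (permutation p = 1e-05, the smallest 100000 permutations can give, adjusted p = 0.00045) and Spearman's rho = 0.75 (permutation p = 1e-05) over 31 arrays, and r = 0.71 without the 2 arrays farthest from the median of Gzmk. Within groups their r was 0.79 in bled-side, 0.49 in contralateral and 0.96 in sham nodes.

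Gzmk and Ccl5 had r = 0.70 (permutation p = 8e-05, adjusted p = 0.0012), rho = 0.71 (permutation p = 2e-05) and r = 0.72 without the 2 farthest arrays. Prf1 and Klrk1 had r = 0.80 (permutation p = 5e-05, adjusted p = 0.00112), rho = 0.71 (permutation p = 9e-05) and r = 0.62 without the sham nodes of C9 and C2. The other called pairs were Nkg7 with Ccl5 (r = 0.55, rho = 0.58), Gzma with Nkg7 (r = 0.50, rho = 0.47, the 1 pair of the 6 not called on rho, adjusted p = 0.0622) and Klrd1 with Klrk1 (r = 0.45, rho = 0.58). Prf1 with Klrd1 was called on rho alone (0.53, permutation p = 0.00217, adjusted p = 0.0163). In the knee 0 of 45 pairs were called over 29 arrays by either measure, with r between −0.45 (Prf1 and Ncr1) and 0.55 (Gzma and Gzmk).

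The members were also set against the marker means, 90 relations in each tissue, a comparison chosen after the data had been seen. Arrays of both sides of a rat were again counted separately, so the permutation p-values in both tissues may be too small. On Pearson's r 6 were called in the node, and on rho 7, the additional one being Nkg7 with the synovial and fibroblast markers (rho = 0.52, r = 0.44). Prf1 (r = 0.63, rho = 0.77), Klrd1 (r = 0.66, rho = 0.67) and Klrk1 (r = 0.52, rho = 0.61) varied with the T cell markers, with permutation p of 5e-05, 0.00016 and 0.00187 for r. Ncr1 ran against them (r = −0.58, rho = −0.59, permutation p = 0.00108). Without the 2 farthest arrays these 4 r were 0.61, 0.55, 0.57 and −0.61. Gzma followed the macrophage and monocyte markers (r = 0.64, rho = 0.67), and Klrd1 ran against the synovial and fibroblast markers (r = −0.68, rho = −0.64).

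In the knee 3 relations were called on r and 2 on rho. Klrk1 followed the plasmacytoid dendritic cell list (r = 0.73, rho = 0.65, permutation p = 4e-05 for r and 0.00024 for rho) and the macrophage and monocyte list (r = 0.63, rho = 0.62, permutation p = 0.00025 and 0.0011), with r = 0.63 and 0.49 without the 2 farthest arrays. Nkg7 followed the neutrophil markers (r = 0.74, permutation p = 0.00136, rho = 0.50, permutation p = 0.00755, not called on rho with adjusted p = 0.226). Without contralateral K10 and bled K2 this r was 0.26, so its size over all knees depended on those arrays. Within groups it was 0.61 in bled, 0.92 in contralateral and 0.68 in sham knees, the last holding neither array.

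**Figure D5:**
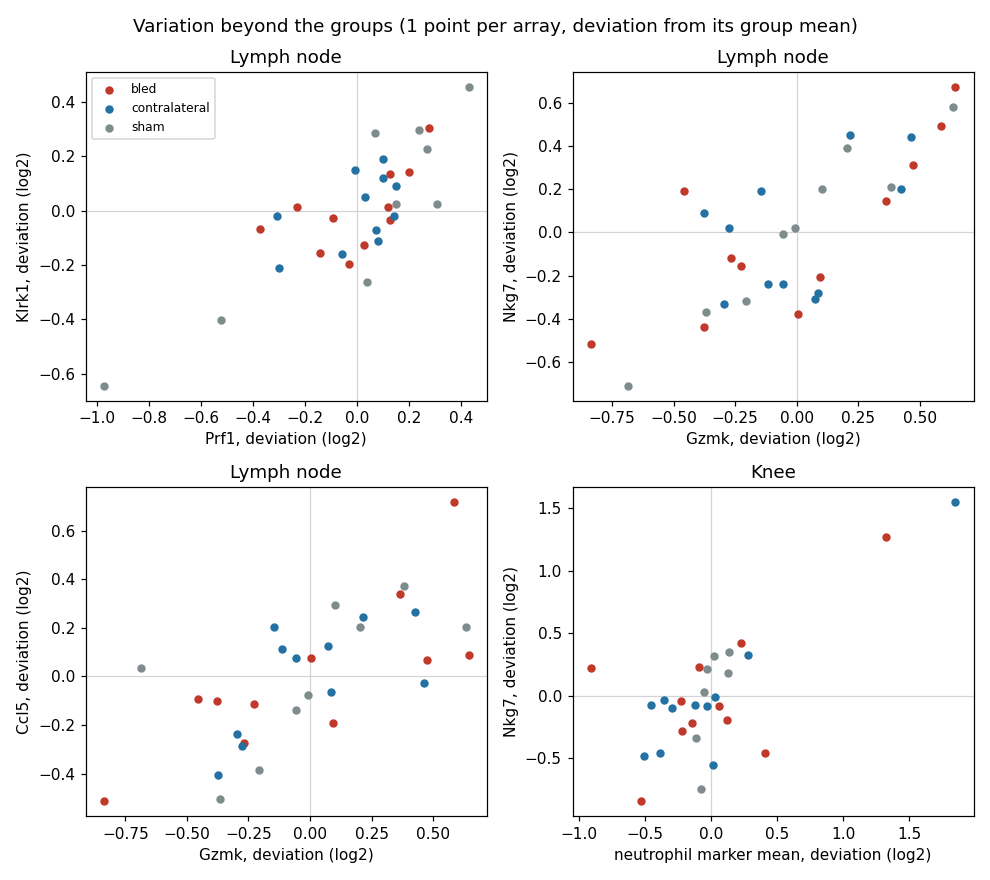
Deviations of single arrays from their group mean, in log2 units on both axes, for 3 pairs of genes in the node and for Nkg7 against the mean of the neutrophil markers in the knee. Each point is 1 array. Prf1 and Klrk1 (r = 0.80), Gzmk and Nkg7 (0.78) and Gzmk and Ccl5 (0.70) vary together in the node, and the knee panel has 2 arrays far from the rest.

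The genes most like a member over all arrays of a tissue were found by Pearson's r, which here includes the differences between groups and is a description. Over the 29 knee arrays, Klrk1 was most like Cd68, a macrophage lysosomal protein gene, Ly86 and the integrin gene Itga4 (r = 0.94 each), and Gzma was most like Gpr146, Cmahp and Ctnna3 (0.73 each). Over the 31 node arrays, Gzma was most like Pilrb2l3, Ext1 and Tnfrsf21 (0.67, 0.67 and 0.66), and Gzmb like Ppp1r14b, Adam5 and Sncb (0.67, 0.67 and 0.64).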

How the data were processed

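Total RNA of 29 knee and 31 node samples was hybridised to 1 Affymetrix array each. Per the submitters' processing notes, the authors used RMA and Affymetrix Expression Console (version 1.4.46), and the deposited values are log2 expression values from 1.62 to 14.03. Depth is fixed by the array, so the number of arrays limits the precision. The sources used here do not give RMA options, hybridization batches or scan dates. Of 36685 probe sets, 18511 had 1 annotated symbol, 575 had several and 17599 had none, and all were tested.

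Groups came from the sample labels. limma 3.58.1 in R 4.3.3 fitted the 3 groups of a tissue, or all 6 groups, to every probe set without a filter or block, with Benjamini-Hochberg adjustment. Fold changes are differences of mean log2 values ± SE. Promoters and figures used Python 3.11.15, pandas 2.3.3 and matplotlib 3.10.9. Members, lists and tests were chosen with earlier results of these data known. All 10 members are named, as are up to 4 called genes with the largest difference per list and comparison (role and marker lists alike) and the 3 genes most like each of 2 members per tissue.

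Both sides of a bled rat come from 1 animal, per the labels, so rat pairs them. Deviations correlated between sides from −0.1 to 0.21 in the knee and from 0.12 to 0.32 in the node. Alternatives were the compared groups alone, rat as a block, quantile normalization, centring, a filter on dim probe sets, a trended prior, array weights, 1 probe set per gene, muscle or adipocyte covariates, and arrays left out. Tested on simulated data for bled minus contralateral over 36685 probe sets, the knee model recovered 68 of 100 changes of 0.5 and 94 of 100 changes of 1, and the node model 78 and 97. False calls were 9 in the knee and 8 in the node. Only these probe sets were changed, with independent noise and no pairing by rat. In the real data limma called 34.7% of probe sets in the knee and 0% in the node, so recovery there may differ.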

Additional observations from a re-analysis of the deposited data

Results flagged for a closer look

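Klrk1 was picked out because its response differed between tissues when the difference itself was tested in limma. Its bled minus contralateral difference was larger in the knee than in the node by 0.99 (± 0.21 SE, adjusted p = 0.000105), with the bled side higher in 11 of 11 rats in the knee and in 8 of 11 in the node. Its bled minus sham difference was larger in the knee than in the node by 1.34 (± 0.23, adjusted p = 2.51e-06). Both share the bled arrays. For the 10 members in the sham knees and in the sham nodes, 20 sets of values in all, a test for a single array far from the others found 0. The groups of 11 arrays are too large for that test and were not tested, so it says nothing of Nkg7 in bled K2 and contralateral K10 or of Klrk1 in contralateral K10.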

How the results depend on the processing

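Over the processing settings, 798 of 831 results kept their side of the threshold, 33 did not, and 0 reversed among called values. Sign was not part of this count for differences that were not called. Among these, Prf1 in contralateral against sham nodes ran from −0.13 to 0.14 over the settings. The other Gzmb probe sets were called in none of the 10 comparisons. With each array left out in turn, 34 of 1800 changed their side of the threshold and 0 reversed among called values. Some differences that were not called changed sign, such as Nkg7 between bled and contralateral knees (−0.02 to 0.26). With rat as a fixed replicate block on the paired sides, 5 members were called between bled and contralateral knees in place of 3. With rat as a random block Prf1 was also called (adjusted p = 0.0478), and the block changed no other call. In limma, Prf1 was called there as well with only the compared groups (adjusted p = 0.0485), the dim filter (0.0369), array weights (0.0279), 1 probe set per gene (0.0406) and without C5 (0.0402). Between contralateral and sham knees, 2 members were called in place of 4 with only the compared groups, without the sham array of C5, or, of 5 bright enough to be tested, without dim probe sets. Between bled and sham knees, 3 of 5 tested were called without dim probe sets, in place of 5, and Klrd1 was lost with only the compared groups (adjusted p = 0.0604) and with the muscle covariate (0.0589). Prf1 was lost between contralateral and sham knees with array weights (0.0669). In bled-side against sham nodes, 2 members were called in place of 1 after quantile normalization, centring, the dim filter (of 8 tested) or 1 probe set per gene, and 0 without C2 and C9. In contralateral against sham nodes, 2 were called after centring or 1 probe set per gene, 3 with the dim filter and 0 with the adipocyte covariate. Between tissues, 2 in place of 1 were called for bled minus sham after quantile normalization, centring or the dim filter. Without C5, C2 and C9, 2 in place of 1 were called for the sides and 1 in place of 0 for contralateral minus sham. Apart from fewer genes or arrays where a setting leaves them out, the cause was not tested. With 1 array left out, members called ranged from 3 to 4 (bled minus contralateral), 3 to 6 (bled minus sham) and 1 to 4 (contralateral minus sham) in the knee, and from 0 to 0, 1 to 3 and 1 to 3 in the node. Centring moved the share of higher calls: against sham, bled knees had 8636 higher and 4933 lower probe sets (7307 and 6908 uncentred), contralateral knees 634 and 217 (361 and 305), bled-side nodes 938 and 414 (701 and 860) and contralateral nodes 1052 and 442 (813 and 1031). Over all probe sets, 666 were called between contralateral and sham knees, against 381 with only the compared groups, 402 with array weights and 408 without C5. In bled-side against sham nodes 1561 were called, against 857 with only the compared groups, 926 without C2 and C9 and 406 with the adipocyte covariate. In contralateral against sham nodes 1844 were called, against 1137, 1063 and 71 under the same settings. For contralateral minus sham between tissues, 746 were called, against 480 without C5, C2 and C9. The dim signal of Gzma, Gzmb, Gzmk, Klrd1 and Ncr1 in the knee limits what could be seen.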
